A study of Mus musculus with 15 samples.

Results

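The mitochondrial genome of the mouse holds 37 genes, and all of them were followed here in colon tissue from 15 mice with dextran sulfate sodium (DSS) colitis. The members were every gene whose GENCODE M21 symbol begins with mt-, the genes of chromosome M, which are 37 of the 55335 genes with a value. They are 13 protein-coding genes, 2 ribosomal RNA genes and 22 transfer RNA genes. RNA sequencing was done on colon tissue of 3 groups of 5 mice. All 15 mice received DSS, a polymer in the drinking water of such models that injures the colon lining. The DSS group received DSS with nothing else named. The DSS_ICB group received DSS and immune checkpoint blockade (ICB, antibodies that release brakes on T cells). The DSS_ICB_Fp group received DSS, ICB and Faecalibacterium prausnitzii, a butyrate-producing gut bacterium, by gavage. Strain, age, sex, the antibodies, a control antibody, a control gavage, cages and the day of sampling are not given in the sources used here, and no group without DSS was analysed. Whether RNA was selected by its poly(A) tail or depleted of ribosomal RNA is not given either. The series title names immunotherapy toxicity and its abrogation by this bacterium as the subject. The 3 comparisons between groups share libraries, so they are given side by side and not as separate evidence.

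As background, mitochondria keep a small circular genome that is transcribed from both strands into long precursors. Most messenger and ribosomal RNAs in these precursors are separated by transfer RNAs, whose excision frees them. The encoded proteins are core subunits of respiratory complexes I, III and IV and of the ATP synthase (complex V), and all their partner subunits are encoded in the nucleus. In the colon, absorptive epithelial cells oxidise butyrate in their mitochondria for energy, and smooth muscle of the wall is also rich in mitochondria.

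The sequences that matter for reading these values are those that the mitochondrial genome shares with chromosome 1. A stretch of 4663 bases on the minus strand of GRCm38, chr1:24611535-24616197, holds 7 annotated pseudogenes at least 99% identical to a member over at least 90% of their own length. For mt-Co3 and its copy Gm28437, the first 60 bases are shown because they are letter for letter the same, as are all 783 bases of the copy. For mt-Nd3 with Gm28438, and mt-Co1 with Gm29216, a stretch with the single base that differs within the aligned part is shown. That base is in capitals. The aligned part of Gm29216 starts at its base 10, and it is printed from there. Sequences were read from the GENCODE M21 transcripts (GRCm38), 5′ to 3′.
mt-Co3: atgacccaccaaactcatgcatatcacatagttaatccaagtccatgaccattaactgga
Gm28437: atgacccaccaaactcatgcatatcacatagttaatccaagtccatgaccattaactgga
mt-Nd3: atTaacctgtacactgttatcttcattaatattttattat
Gm28438: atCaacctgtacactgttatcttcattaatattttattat
mt-Co1: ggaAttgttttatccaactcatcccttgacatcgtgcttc
Gm29216: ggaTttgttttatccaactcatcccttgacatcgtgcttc
In mt-Nd3 the difference from its copy is T3C, counted from 1 at the 5′ end of the member's transcript, and in mt-Co1 it is A1066T, counted the same way. A read from most of these stretches fits both places equally well. The levels of the copies are given after those of the members.

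A second feature of sequence is overlap between neighbours. The genes mt-Atp8 and mt-Atp6 share 43 bases of the same strand, shown here in capitals, so that a read over them belongs to both genes. The stretches are the last 74 bases of mt-Atp8 (chrM:7896-7969) and the first 74 of mt-Atp6 (chrM:7927-8000).
mt-Atp8: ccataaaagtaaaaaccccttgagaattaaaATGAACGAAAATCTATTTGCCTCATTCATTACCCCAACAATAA
mt-Atp6: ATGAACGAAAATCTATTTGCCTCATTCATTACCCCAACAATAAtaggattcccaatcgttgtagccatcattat
Of the 13 protein-coding genes, 9 open with ATG, and mt-Nd1, mt-Nd2, mt-Nd3 and mt-Nd5 open with GTG, ATA, ATT and ATC. For mt-Co3, mt-Nd4 and mt-Cytb the annotated length is 1 base over a whole number of codons. The gene mt-Nd6 lies alone among the protein-coding genes on the minus strand, and G makes up 28.1% of its bases, against 5.88% to 16.1% in the other 12.

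The data are FPKM values (fragments normalised to transcript length and library size). They are per length, so genes can be set side by side where neither shared sequence nor short length makes a level uncertain. Depth is not given, and steps between low values put it at 15.2 to 24.7 M (mega) fragments per library, if no later scaling was applied. Each library was ranked over all genes and set against each of the other 14, and the median Spearman coefficient was 0.725 for DSS_ICB 3, 0.864 for DSS_ICB 5 and at least 0.921 for the remaining 13. The library DSS_ICB 3 also had the highest summed level of 15 smooth muscle genes and the lowest of 8 epithelial genes, with values given below. None of the 8 epithelial genes or the 15 smooth muscle genes was listed at 0 in all libraries. In bulk tissue, fewer cells of a type and less RNA per cell cannot be told apart.

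Mitochondrially encoded RNA was a large part of the measured colon RNA in every mouse. The 13 protein-coding genes made up 17.0, 24.9, 19.5, 19.7 and 17.8 percent of total FPKM in DSS 1 to 5. Their share was 16.3, 8.88, 31.2, 19.6 and 15.97 percent in DSS_ICB 1 to 5, and 18.8, 18.7, 19.6, 16.1 and 19.3 percent in DSS_ICB_Fp 1 to 5. The lowest and the highest share of all 15 mice were both in the DSS_ICB group, and the groups overlapped. Group means were 19.8% ± 3.08 in DSS, 18.4% ± 8.14 in DSS_ICB and 18.5% ± 1.38 in DSS_ICB_Fp (SD, n = 5). The mean of DSS_ICB minus that of DSS was -1.40 percentage points with a pooled SD of 6.15, and that of DSS_ICB_Fp minus DSS_ICB was 0.13 with a pooled SD of 5.84. That of DSS_ICB_Fp minus DSS was -1.26 points with a pooled SD of 2.39, so each difference was smaller than the spread between mice. The first difference was 0.98 points without DSS_ICB 2, -4.59 without DSS_ICB 3, -0.12 without DSS 2 and -2.48 without DSS_ICB 2 and 3. The second was -2.24 points without DSS_ICB 2, 3.32 without DSS_ICB 3, -0.15 without DSS_ICB_Fp 3 and 1.22 without DSS_ICB 2 and 3. The third was 0.016 points without DSS 2.

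The other RNA classes were small beside the messenger RNAs. The 2 ribosomal RNA genes held a mean of 0.38% ± 0.13 of total FPKM with DSS alone, 0.49% ± 0.22 with ICB added and 0.39% ± 0.10 with the bacterium as well (SD, n = 5), with DSS_ICB 3 highest at 0.87% and DSS 5 lowest at 0.24%. The 22 transfer RNA genes held 0.46% ± 0.082, 0.51% ± 0.38 and 0.45% ± 0.046 in the same order, with DSS_ICB 3 highest at 1.15% and DSS_ICB 2 lowest at 0.11%. All 37 genes together ran from 9.39% of total FPKM in DSS_ICB 2 to 33.2% in DSS_ICB 3. Counted as fragments, by weighting each FPKM by gene length, the 13 messenger RNAs held 3.0% to 12.7% of each library.

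**Figure D1:**
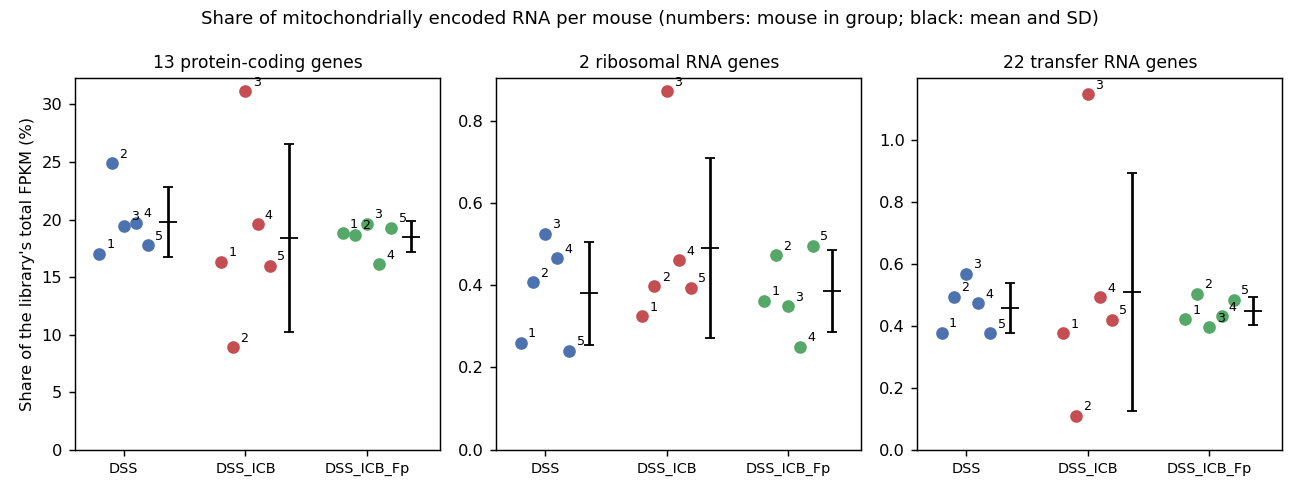
Share of each library's total FPKM, in percent, held by the 13 protein-coding, 2 ribosomal RNA and 22 transfer RNA genes of the mitochondrial genome; points are mice, numbered within their group, and black bars are the mean and SD of 5 mice. DSS_ICB 3 is highest in all 3 panels (31.2, 0.87 and 1.15 percent), and DSS_ICB 2 is lowest for protein-coding (8.88 percent) and transfer RNA genes (0.11 percent).

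No mitochondrially encoded gene passed the test in any comparison. Of the 37 genes, 36 had at least 1 FPKM in at least 5 libraries and were tested, and mt-Ts2 was not. With limma and Benjamini-Hochberg adjustment over all 14385 genes tested, 0 of 36 had an adjusted p under 0.05 in DSS_ICB against DSS, where 3 genes of all tested did (0.0209%). In DSS_ICB_Fp against DSS_ICB it was 0 of 36, beside 19 of all genes tested (0.132%), and in DSS_ICB_Fp against DSS it was 0 of 36, beside 0% of all genes. At an unadjusted p under 0.05 there were 2 members in the first comparison, both transfer RNAs and both lower, beside 11.3% of all genes (7.08% higher and 4.22% lower). In the second there were 0 members, beside 21.8% of all genes (9.34% higher and 12.4% lower), and in the third 0, beside 1.41% (0.591% higher and 0.82% lower). The values of the 3 groups overlapped for each of the 36 members in each comparison, while 1.21% of all genes lay wholly higher and 0.327% wholly lower in DSS_ICB than in DSS. Of all genes, 0.945% lay wholly higher and 2.46% wholly lower in DSS_ICB_Fp than in DSS_ICB, and 0.195% each way in DSS_ICB_Fp against DSS. No other count tool was run, since the values are not counts. A value that misses the threshold does not show that the groups are alike, and the 95% intervals given below are wide.

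The signs of the protein-coding and transfer RNA medians turned on single libraries. For the 13 protein-coding genes it was -0.18 in DSS_ICB against DSS, 0.10 in DSS_ICB_Fp against DSS_ICB and -0.062 in DSS_ICB_Fp against DSS, beside 0.018, -0.040 and -0.011 over all genes tested. In the first comparison 12 of 13 were below 0, in the second 11 of 13 were above 0, and in the third 13 of 13 were below 0. Over all genes 47.2% were below 0 in the first, 44.5% above and 55.5% below in the second, and 52.9% below in the third. Without DSS_ICB 2 the first median was 0.13 and the second -0.20. Without DSS_ICB 3 they were -0.46 and 0.37, and without DSS 2 the third was 0.048. For the 21 transfer RNA genes tested the medians were -0.086, -0.0059 and -0.060, with 12, 11 and 12 genes below 0. The first was 0.29 without DSS_ICB 2 and -0.52 without DSS_ICB 3. The second was -0.34 and 0.47 without the same libraries, and the third 0.032 without DSS 2. With median-of-ratios scaling the second was 0.040.

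Complex I, which takes electrons from NADH, is the complex with the most mitochondrially encoded subunits, 7 in all. The first of them in the genome is mt-Nd1 (chrM:2751-3707), which forms part of the quinone-binding end of the membrane arm. It was measured at 5008, 8733, 5888, 5614 and 5061 FPKM in DSS 1 to 5, at 4731, 2245, 12006, 6866 and 4788 in DSS_ICB 1 to 5, and at 5128, 5329.8, 6079, 5679.6 and 5118 in DSS_ICB_Fp 1 to 5. DSS_ICB 2 was lowest and DSS_ICB 3 highest, and DSS 2 stood above the rest of its group. The mean ± SD (n = 5) was 6061 ± 1539 in DSS, 6127 ± 3672 in DSS_ICB and 5467 ± 411 in DSS_ICB_Fp. The log2 differences of mt-Nd1 were -0.16 for DSS_ICB against DSS, 0.041 for DSS_ICB_Fp against DSS_ICB and -0.12 for DSS_ICB_Fp against DSS. The first of these had an SE of 0.34 and a 95% interval of -0.88 to 0.56. The fit compares means of log2 values, and for the first 2 comparisons its sign was opposite to that of the difference between the FPKM means, as it was for several other members.

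The proton-pumping modules of the membrane arm are built on mt-Nd2, mt-Nd4 and mt-Nd5. Of the 15 mice, DSS_ICB 2 was lowest and DSS_ICB 3 highest for each of them. The gene mt-Nd2 (chrM:3914-4951) was at 2297, 3998, 2901, 2839 and 2365 FPKM in DSS 1 to 5, at 2239, 1223, 7279.8, 3083 and 2449.6 in DSS_ICB 1 to 5, and at 2525, 2756, 2684, 2541 and 2882 in DSS_ICB_Fp 1 to 5. Differences for mt-Nd2 were -0.050 for DSS_ICB against DSS, -0.028 for DSS_ICB_Fp against DSS_ICB and -0.078 for DSS_ICB_Fp against DSS (log2). Levels of mt-Nd4 (chrM:10167-11544), which overlaps mt-Nd4l by 7 bases, were 2641, 4853, 3506, 3639.8 and 2761 FPKM in DSS 1 to 5, with 2673, 1527, 7906, 3407 and 2673 in DSS_ICB 1 to 5, and with 3133, 3383, 3346, 3074 and 3539 in DSS_ICB_Fp 1 to 5. For mt-Nd4 the log2 differences were -0.12 for DSS_ICB against DSS, 0.078 for DSS_ICB_Fp against DSS_ICB and -0.045 for DSS_ICB_Fp against DSS. The largest subunit gene, mt-Nd5 (chrM:11742-13565), was at 1806, 2639, 2123, 1994 and 1865 FPKM in DSS 1 to 5, at 1697, 377, 4806, 1802 and 1793 in DSS_ICB 1 to 5, and at 1996, 2060.4, 2084, 1551 and 2280.3 in DSS_ICB_Fp 1 to 5. Its value in DSS_ICB 2 was 18.9% of the median of the 13 libraries other than DSS_ICB 2 and 3, the lowest such share of the 13 messenger RNAs. Log2 differences of mt-Nd5 were -0.38 for DSS_ICB against DSS, 0.32 for DSS_ICB_Fp against DSS_ICB and -0.062 for DSS_ICB_Fp against DSS, and the first had an SE of 0.46.

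The remaining complex I subunits, mt-Nd3, mt-Nd4l and mt-Nd6, are small membrane proteins beside the quinone-binding site. The least abundant messenger RNA was mt-Nd3 (chrM:9459-9806), at 837, 1327, 1253, 948 and 813 FPKM in DSS 1 to 5, at 859, 353, 2330.3, 2569 and 856 in DSS_ICB 1 to 5, and at 888, 1106, 943, 1049 and 942 in DSS_ICB_Fp 1 to 5. It was the single messenger RNA whose highest value was not in DSS_ICB 3 but in DSS_ICB 4. Its log2 differences were 0.11 for DSS_ICB against DSS, -0.15 for DSS_ICB_Fp against DSS_ICB and -0.046 for DSS_ICB_Fp against DSS. The gene mt-Nd4l (chrM:9877-10173) was at 2259, 4273, 2542, 2412 and 2395 FPKM in DSS 1 to 5, at 2096, 797, 5705, 2299 and 2262 in DSS_ICB 1 to 5, and at 2519, 2469, 2796, 1631 and 2678 in DSS_ICB_Fp 1 to 5. DSS 2 stood above and DSS_ICB_Fp 4 below the other mice of their groups. For mt-Nd4l the log2 differences were -0.30 for DSS_ICB against DSS, 0.12 for DSS_ICB_Fp against DSS_ICB and -0.18 for DSS_ICB_Fp against DSS. The minus-strand gene mt-Nd6 (chrM:13552-14070) was at 2007, 2711, 2612, 2804 and 1965 FPKM in DSS 1 to 5, at 1995, 451, 6085, 2299 and 1938 in DSS_ICB 1 to 5, and at 2106, 2267, 2164, 2679 and 2596 in DSS_ICB_Fp 1 to 5. In the 13 libraries other than DSS_ICB 2 and 3 its highest value was 1.45 times its lowest, the narrowest range among the messenger RNAs. Log2 differences of mt-Nd6 were -0.34 for DSS_ICB against DSS, 0.31 for DSS_ICB_Fp against DSS_ICB and -0.025 for DSS_ICB_Fp against DSS.

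Complex III has a single mitochondrially encoded subunit, cytochrome b, the gene mt-Cytb (chrM:14145-15288), which carries electrons from quinol. It was measured at 6248, 10926, 7249, 7777 and 6699 FPKM in DSS 1 to 5, at 6247, 4917, 13928, 7788 and 5439.8 in DSS_ICB 1 to 5, and at 7002, 7020.4, 8068, 6766 and 7281 in DSS_ICB_Fp 1 to 5. DSS_ICB 2 was again lowest, at 70.0% of the median of the 13 libraries other than DSS_ICB 2 and 3, the highest such share of the messenger RNAs. The mean ± SD (n = 5) of mt-Cytb was 7779.8 ± 1850.2 in DSS, 7664 ± 3666 in DSS_ICB and 7228 ± 504 in DSS_ICB_Fp. Its log2 differences were -0.10 for DSS_ICB against DSS, 0.022 for DSS_ICB_Fp against DSS_ICB and -0.080 for DSS_ICB_Fp against DSS, with an SE of 0.26 and, for the first, a 95% interval of -0.66 to 0.46. The second was above 0 although the FPKM mean was lower in DSS_ICB_Fp than in DSS_ICB.

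Complex IV, cytochrome c oxidase, passes electrons to oxygen through the subunits of mt-Co1 and mt-Co2, and mt-Co3 encodes a further core subunit. The most abundant member was mt-Co1 (chrM:5328-6872), at 12027, 21195, 15019, 16228 and 13098 FPKM in DSS 1 to 5, at 11746, 7154, 25161, 13873 and 10344 in DSS_ICB 1 to 5, and at 15800.5, 15508, 15828, 12551 and 16644 in DSS_ICB_Fp 1 to 5. DSS_ICB 3 was highest, DSS 2 next, and DSS_ICB 2 lowest. The mean ± SD (n = 5) of mt-Co1 was 15513 ± 3572 in DSS, 13656 ± 6879 in DSS_ICB and 15266 ± 1576 in DSS_ICB_Fp. Its log2 differences were -0.28 for DSS_ICB against DSS, 0.28 for DSS_ICB_Fp against DSS_ICB and -0.0013 for DSS_ICB_Fp against DSS, with 95% intervals of -0.90 to 0.33 for the first and -0.33 to 0.90 for the second. The copper-binding subunit gene mt-Co2 (chrM:7013-7696) was at 5406, 9809, 6904, 7333 and 5890.1 FPKM in DSS 1 to 5, at 5523, 3315, 11745, 9007 and 4705 in DSS_ICB 1 to 5, and at 6490.2, 6542, 7155, 6453 and 6655 in DSS_ICB_Fp 1 to 5. The DSS_ICB_Fp mice lay close together, and DSS_ICB_Fp 3 stood above the others of its group. For mt-Co2 the log2 differences were -0.16 for DSS_ICB against DSS, 0.10 for DSS_ICB_Fp against DSS_ICB and -0.056 for DSS_ICB_Fp against DSS. Levels of mt-Co3 (chrM:8607-9390) were 3788, 7089, 5111, 4772 and 3963 FPKM in DSS 1 to 5, with 3789.7, 1709.8, 8962, 6358 and 3747 in DSS_ICB 1 to 5, and with 4641, 4954, 4799, 4286 and 4881 in DSS_ICB_Fp 1 to 5. Log2 differences of mt-Co3 were -0.18 for DSS_ICB against DSS, 0.15 for DSS_ICB_Fp against DSS_ICB and -0.034 for DSS_ICB_Fp against DSS.

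The ATP synthase holds the products of mt-Atp8 and mt-Atp6, the latter forming the proton channel beside the rotating ring. The shortest coding gene, mt-Atp8 (chrM:7766-7969, 204 bases), was at 9567, 17109, 10814, 11568 and 9717 FPKM in DSS 1 to 5, at 8329, 3925, 19486, 13142 and 8244 in DSS_ICB 1 to 5, and at 10904, 9597, 10571, 7553 and 9165 in DSS_ICB_Fp 1 to 5. DSS 2 stood above the other DSS mice. For mt-Atp8 the log2 differences were -0.31 for DSS_ICB against DSS, 0.030 for DSS_ICB_Fp against DSS_ICB and -0.28 for DSS_ICB_Fp against DSS. The gene mt-Atp6 (chrM:7927-8607) was at 5877, 10433, 6999.6, 7739 and 6095 FPKM in DSS 1 to 5, at 5568, 3099, 12704, 8366 and 5242 in DSS_ICB 1 to 5, and at 6798, 6759, 7368, 6311 and 6799 in DSS_ICB_Fp 1 to 5. Its order of mice was like that of mt-Co1 at both ends, with DSS_ICB 3 highest, DSS 2 next and DSS_ICB 2 lowest. Log2 differences of mt-Atp6 were -0.21 for DSS_ICB against DSS, 0.12 for DSS_ICB_Fp against DSS_ICB and -0.096 for DSS_ICB_Fp against DSS.

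The spread of the messenger RNAs differed between groups in size. Their median coefficient of variation was 24.3% in DSS, 59.9% in DSS_ICB and 7.51% in DSS_ICB_Fp, with ranges over the 13 genes of 15.9% to 30.4%, 47.8% to 82.3% and 4.32% to 19.0%. These values describe the groups, and the difference in spread was not tested. In DSS_ICB 2 all 13 messenger RNAs were at their lowest, at 18.9% to 70.0% of the median of the 13 other libraries. In DSS_ICB 3, 12 of 13 were at their highest, and the 13 genes were at 1.68 to 2.71 times that median.

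**Figure D2:**
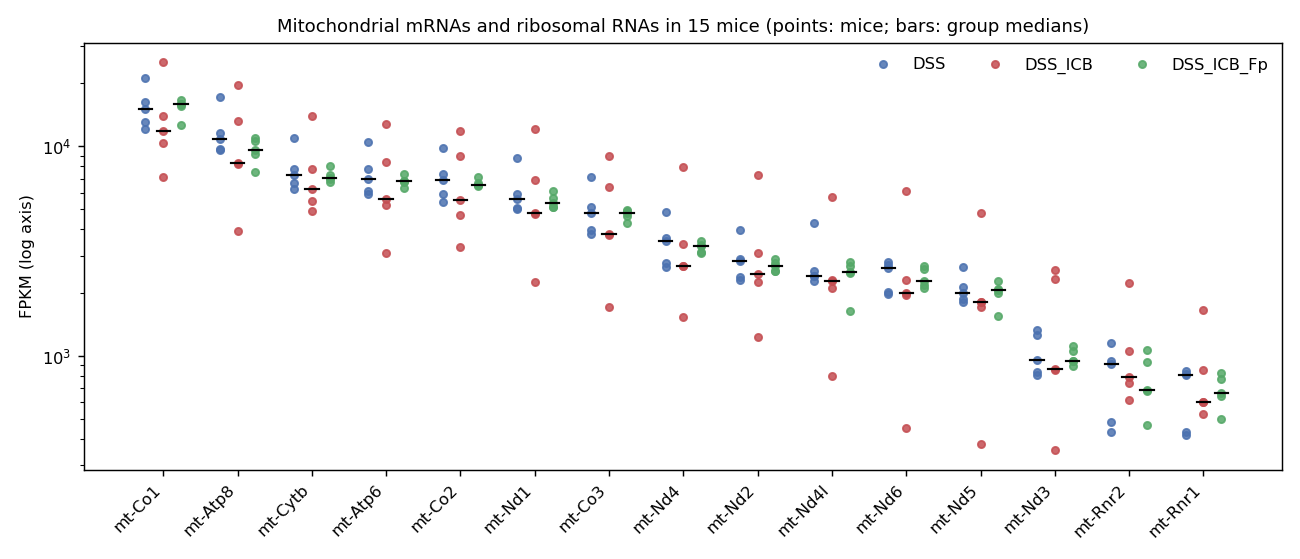
FPKM on a log axis of the 13 messenger RNAs, in order of mean level, and of the 2 ribosomal RNAs; points are the 5 mice of each group and black bars the group medians. For each messenger RNA the lowest point is DSS_ICB 2, and the 3 groups overlap for every gene.

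The 2 ribosomal RNAs of the mitochondrial ribosome did not follow the messenger RNAs in DSS_ICB 2. The small-subunit RNA mt-Rnr1 (chrM:70-1024) was at 432, 805, 817, 847 and 417 FPKM in DSS 1 to 5, at 528, 601, 1646, 855 and 601 in DSS_ICB 1 to 5, and at 664, 829.3, 639.6, 499 and 772 in DSS_ICB_Fp 1 to 5. The large-subunit RNA mt-Rnr2 (chrM:1094-2675) was at 481, 915, 1152, 938 and 434 FPKM in DSS 1 to 5, at 613, 793, 2219.6, 1049.8 and 743 in DSS_ICB 1 to 5, and at 683, 935, 675, 465.6 and 1067 in DSS_ICB_Fp 1 to 5. DSS_ICB 3 was highest for both and DSS 5 lowest, and DSS_ICB 2 was at 90.5% and 107% of the median of the 13 libraries other than DSS_ICB 2 and 3. The log2 differences of mt-Rnr1 were 0.28 for DSS_ICB against DSS, -0.20 for DSS_ICB_Fp against DSS_ICB and 0.087 for DSS_ICB_Fp against DSS. Those of mt-Rnr2 were 0.40 for DSS_ICB against DSS, -0.39 for DSS_ICB_Fp against DSS_ICB and 0.010 for DSS_ICB_Fp against DSS, with an SE of 0.37. Their median in the first comparison was 0.34 and was 0.057 without DSS_ICB 3, and in the second -0.30 and -0.0088. In the third comparison their median was 0.049, and -0.12 without DSS 5. The ratio of summed ribosomal to summed messenger FPKM ran from 0.0136 in DSS 5 to 0.0448 in DSS_ICB 2. In cells the mitochondrial ribosomal RNAs are abundant, and how far library preparation removed them was not given.

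Transfer RNAs, at 59 to 75 bases, are shorter than the fragments of most RNA libraries. How the authors' tools set a length for such genes is not given, so their FPKM are the least certain here. Their mean FPKM ran from 0.614 for mt-Ts2 to 607 for mt-Te. The 3 highest by mean FPKM are printed with mt-Tn, which is in a cluster of minus-strand genes, and with mt-Th, mt-Tl2 and mt-Ts2, which form an unbroken row on the plus strand. Anticodons are in capitals.
mt-Te: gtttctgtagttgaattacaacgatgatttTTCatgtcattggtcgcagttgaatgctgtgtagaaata
mt-Tl1: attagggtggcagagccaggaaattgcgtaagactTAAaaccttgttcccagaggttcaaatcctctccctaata
mt-Tp: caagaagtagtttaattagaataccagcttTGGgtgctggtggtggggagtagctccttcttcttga
mt-Tn: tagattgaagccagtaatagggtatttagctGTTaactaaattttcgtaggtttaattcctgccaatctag
mt-Th: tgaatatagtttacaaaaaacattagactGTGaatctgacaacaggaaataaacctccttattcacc
mt-Ts2: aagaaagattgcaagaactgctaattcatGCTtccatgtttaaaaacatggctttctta
mt-Tl2: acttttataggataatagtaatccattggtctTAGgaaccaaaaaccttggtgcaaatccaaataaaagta
The transfer RNA for glutamate, mt-Te (chrM:14071-14139), lies end to end with mt-Nd6, on its 5′ side on the minus strand. The lowest and the highest library, DSS_ICB 2 and DSS_ICB 3, were the same for both genes. They were the same for most messenger and transfer RNAs, so this is not particular to the pair.

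Levels of mt-Te were 456, 629.7, 609, 628 and 423 FPKM in DSS 1 to 5, with 441, 118, 1798, 564 and 494 in DSS_ICB 1 to 5, and with 496, 607, 486, 691 and 663 in DSS_ICB_Fp 1 to 5. DSS_ICB 3 stood above all others and DSS_ICB 2 below. The log2 differences of mt-Te were -0.16 for DSS_ICB against DSS, 0.27 for DSS_ICB_Fp against DSS_ICB and 0.11 for DSS_ICB_Fp against DSS. The leucine transfer RNA mt-Tl1 (chrM:2676-2750) lies between mt-Rnr2 and mt-Nd1 and was at 322, 552, 394, 361 and 370.4 FPKM in DSS 1 to 5, at 353, 83.5, 967, 361 and 303 in DSS_ICB 1 to 5, and at 385, 412, 380.3, 331 and 330.1 in DSS_ICB_Fp 1 to 5. The log2 differences of mt-Tl1 were -0.32 for DSS_ICB against DSS, 0.21 for DSS_ICB_Fp against DSS_ICB and -0.10 for DSS_ICB_Fp against DSS. The proline transfer RNA mt-Tp (chrM:15356-15422) was at 162, 248, 243, 189 and 157 FPKM in DSS 1 to 5, at 142, 62.7, 315, 243 and 130.4 in DSS_ICB 1 to 5, and at 232, 231, 204, 150.0 and 249 in DSS_ICB_Fp 1 to 5. Both genes were lowest in DSS_ICB 2 and highest in DSS_ICB 3. In DSS_ICB_Fp against DSS_ICB, mt-Tp differed by 0.43 ± 0.34 (SE) on the log2 scale, with a limma adjusted p of 0.470, the smallest of the 36 members in that comparison.

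The asparagine, alanine, cysteine and tyrosine transfer RNAs, mt-Tn, mt-Ta, mt-Tc and mt-Ty, form a minus-strand cluster between 5018 and 5326 of chromosome M. Levels of mt-Tn (chrM:5089-5159) were 92.0, 160.4, 232, 115 and 77.7 FPKM in DSS 1 to 5, with 93.2, 27.0, 543, 262 and 140.2 in DSS_ICB 1 to 5, and with 113, 171, 90.4, 113 and 134 in DSS_ICB_Fp 1 to 5. Mean FPKM was 158 for mt-Tn, 99.5 for mt-Tc, 93.7 for mt-Ta and 46.9 for mt-Ty. In DSS_ICB 3 the 4 genes were at 4.71, 5.48, 4.23 and 5.28 times the median of the 13 libraries other than DSS_ICB 2 and 3. The methionine transfer RNA mt-Tm had a mean of 76.0 FPKM. The 8 minus-strand transfer RNA genes had mean FPKM of 14.9 to 607 with a median of 96.6, and the 14 on the plus strand 0.614 to 394 with a median of 10.3. Whether counting used strand is not given, so reads of a minus-strand transfer RNA and of the plus-strand precursor over it cannot be told apart.

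The 2 members with an unadjusted p under 0.05, mt-Th and mt-Tl2, carry histidine and leucine and flank mt-Ts2. Levels of mt-Tl2 (chrM:11671-11741) were 4.03, 9.14, 22.8, 69.5 and 12.6 FPKM in DSS 1 to 5, with 9.53, 0.659, 9.52, 5.01 and 2.87 in DSS_ICB 1 to 5, and with 7.41, 9.84, 9.02, 3.64 and 10.3 in DSS_ICB_Fp 1 to 5. Levels of mt-Th (chrM:11546-11612) were 3.71, 5.21, 23.2, 44.7 and 9.35 FPKM in DSS 1 to 5, with 4.94, 0.527, 9.15, 5.71 and 3.96 in DSS_ICB 1 to 5, and with 7.31, 6.19, 7.27, 3.74 and 10.2 in DSS_ICB_Fp 1 to 5. DSS 4 was highest and DSS_ICB 2 lowest for both genes, and the DSS and DSS_ICB mice overlapped. In DSS_ICB against DSS, mt-Tl2 differed by -1.62 ± 0.62 (SE) on the log2 scale, with a limma adjusted p of 0.430, and mt-Th by -1.35 ± 0.58 (SE), with an adjusted p of 0.434. Without DSS 4 the differences were -1.09 and -0.89, and with a pseudocount of 10 they were -0.87 and -0.69. The gene between them, mt-Ts2 (chrM:11613-11671), was at 0 to 0.251 FPKM in 14 libraries and at 6.76 in DSS_ICB_Fp 1. A median of 0.20 estimated fragments lay behind a value of mt-Ts2, against 11.1 for mt-Tl2, 9.14 for mt-Th and 694 for mt-Te.

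The other transfer RNA genes were low. Mean FPKM was 23.3 for mt-Tg, 19.0 for mt-Ti, 18.1 for mt-Tq, 17.9 for mt-Tw, 14.9 for mt-Ts1 and 11.01 for mt-Tr. It was 8.56 for mt-Tk, 4.68 for mt-Tt, 3.96 for mt-Td, 3.34 for mt-Tf and 1.12 for mt-Tv. Of the 21 transfer RNA genes tested, 16 were highest in DSS_ICB 3, mt-Tg, mt-Tk, mt-Th and mt-Tl2 in DSS 4, and mt-Ts1 in DSS_ICB_Fp 4. DSS_ICB 2 was lowest for 19, the others being mt-Ts1 and mt-Tf, which was listed at 0 in both DSS_ICB 1 and DSS_ICB 2. Summed transfer RNA FPKM was 1.23% of summed messenger FPKM in DSS_ICB 2 and 3.68% in DSS_ICB 3, and 1.98% to 2.91% in the other libraries.

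The make-up of the messenger pool was steadier than its size. Taking each gene as a percent of the summed FPKM of the 13 genes, mt-Co1 held a mean of 20.7% over 15 mice, mt-Atp8 14.6%, mt-Cytb 10.7%, mt-Atp6 9.81%, mt-Co2 9.57% and mt-Nd1 8.08%. The others held 6.67% for mt-Co3, 4.75% for mt-Nd4, 3.99% for mt-Nd2, 3.53% for mt-Nd4l, 3.28% for mt-Nd6, 2.77% for mt-Nd5 and 1.54% for mt-Nd3. By complex, the 3 complex IV genes held 37.0% ± 1.71, the 7 complex I genes 27.9% ± 2.34, the 2 ATP synthase genes 24.4% ± 1.39 and mt-Cytb 10.7% ± 1.47 (SD, n = 15). The neighbours mt-Cytb, mt-Atp6 and mt-Co2 in this order lie within the spread of each other over mice. Within single libraries, mt-Cytb was above mt-Atp6 in all but DSS_ICB 4. There mt-Atp6 was above mt-Co2 in all but DSS_ICB 2, DSS_ICB 4 and DSS_ICB_Fp 4. Reads of mt-Co1, mt-Co2, mt-Atp6, mt-Co3, mt-Nd3, mt-Nd4l and mt-Nd4 also fit chromosome 1 copies, and how they were counted is not given. The gene mt-Atp8 has only 204 bases, and how length was set for short genes is not given either. Reads within the 43 bases it shares with mt-Atp6 also fit the chromosome 1 copy of mt-Atp6. The order of genes and the shares by complex are uncertain to that extent.

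Departures from this make-up were found mostly in DSS_ICB 2, 3 and 4. Of the 26 lowest and highest shares of the 13 genes, 20 were in DSS_ICB libraries, 5 in DSS_ICB_Fp and 1 in DSS. Those in DSS_ICB were all in DSS_ICB 2, 3 and 4, except the highest of mt-Nd4l, in DSS_ICB 5. The shares are parts of one sum in each library, so these are not separate events and describe libraries, not the group. In DSS_ICB 2, mt-Cytb held 15.8%, against 9.63% to 10.9% in the other 14. In the same library mt-Nd5 held 1.21% and mt-Nd6 1.45%, against means of 2.77% and 3.28%. These genes are neighbours at the far end of the genome, with mt-Cytb on the plus strand next to the minus-strand pair of mt-Te and mt-Nd6. In DSS_ICB 4, mt-Nd3 held 3.18%, against 1.14% to 1.72% in the other 14. In DSS_ICB 3, mt-Nd2, mt-Nd4 and mt-Nd6 held 5.27%, 5.72% and 4.41%, each the highest of 15, and complex I genes held 33.4% of the pool, against 22.4% in DSS_ICB 2. In DSS_ICB_Fp 4, mt-Nd4l held 2.63%, against 3.54% to 3.78% in the others of its group.

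**Figure D3:**
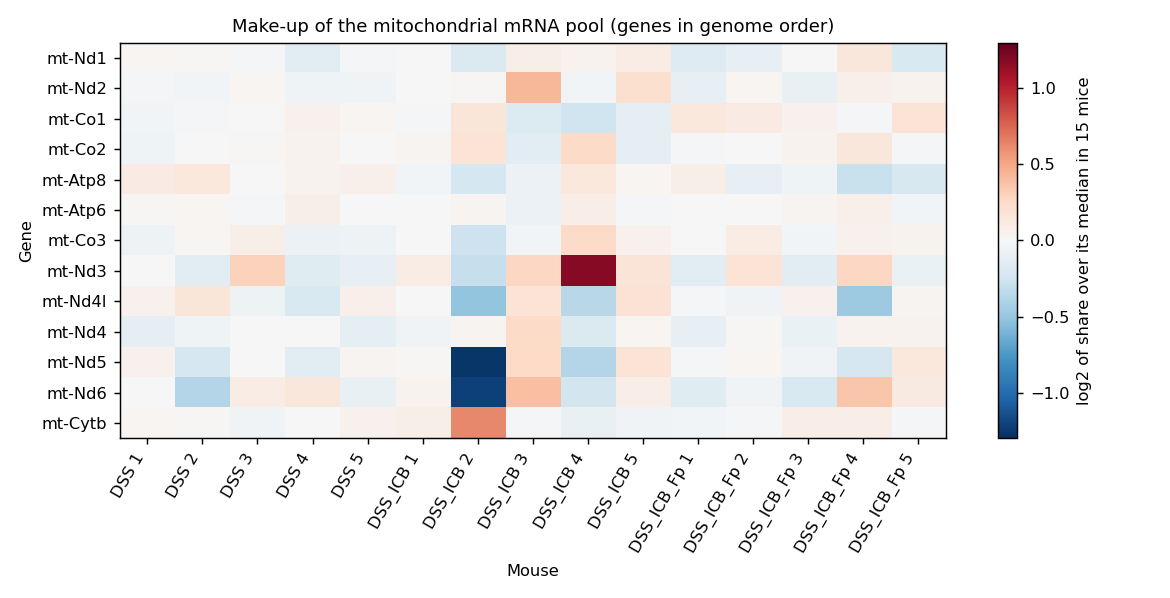
Share of each of the 13 messenger RNAs in their summed FPKM, as log2 of the share over its median in 15 mice; rows are genes in genome order and columns are mice. Most cells are pale, and the darkest are mt-Nd5, mt-Nd6 and mt-Cytb in DSS_ICB 2 and mt-Nd3 in DSS_ICB 4 (3.18 percent).

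The chromosome 1 copies carried values like those of the members. Gm28437, the copy of mt-Co3, was at 3794, 7094, 5113, 4774 and 3966 FPKM in DSS 1 to 5, at 3792, 1712, 8969, 6361 and 3751 in DSS_ICB 1 to 5, and at 4644, 4958, 4802, 4289.6 and 4884 in DSS_ICB_Fp 1 to 5. They matched mt-Co3 mouse by mouse, with a ratio of copy to member FPKM of 1.0004 to 1.0014. For Gm28661 and mt-Co2 the ratio was 1.0029 to 1.0036, for Gm10222 and mt-Nd4l 1.0054 to 1.0135, for Gm28438 and mt-Nd3 0.9813 to 0.9975, and for Gm10925 and mt-Atp6 1.0624 to 1.0835. Gm28439 matches only the first 876 bases of mt-Nd4 and was at 0.524 to 0.663 of its FPKM. Gm29216 matches only bases 1063 to 1545 of mt-Co1 and was at 0.294 to 0.457 of its FPKM. Mean FPKM of the 7 copies ran from 1125 for Gm28438 to 7621 for Gm10925. Together they held 3.87% of total FPKM in DSS_ICB 2 to 12.7% in DSS_ICB 3, so that members and copies together held 13.3% to 45.8%. Whether reads that fit both places were counted in both or divided between them is not given, and the FPKM of mt-Co1, mt-Co2, mt-Atp6, mt-Co3, mt-Nd3, mt-Nd4l and mt-Nd4 is uncertain to that extent. Among annotated transcripts, no copy so close was found for mt-Nd1, mt-Nd2, mt-Atp8, mt-Nd5, mt-Nd6 or mt-Cytb. The 9 copies with 90% to 99% identity had a mean FPKM of at most 76.8. The 43 bases that mt-Atp8 shares with mt-Atp6 also lie in the part matched by Gm10925. Sequence between the annotated copies was not compared, so a further match to mt-Atp8 or to transfer RNA genes there is not excluded. The copies had 0 of 7 adjusted p under 0.05 in each comparison by limma, with 0 at an unadjusted p under 0.05 as well.

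**Figure D4:**
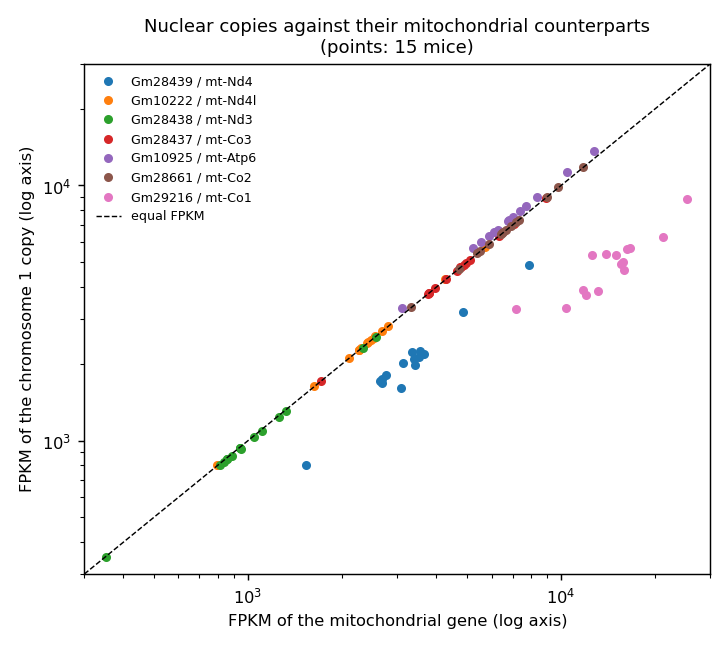
FPKM of each chromosome 1 pseudogene against that of the mitochondrial gene it matches, both on log axes; colours are the 7 pairs, points are the 15 mice and the dashed line marks equal FPKM. The pairs of mt-Nd4l, mt-Nd3, mt-Co3, mt-Atp6 and mt-Co2 lie on or beside the line, and those of mt-Nd4 and mt-Co1, whose copies match only a stretch of the gene, lie below it.

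The libraries at both ends of the mitochondrial range also stood apart in other RNAs. Smooth muscle genes summed to 6.47% of the FPKM outside the mitochondrial genome in DSS_ICB 3, 0.460% in DSS_ICB 2 and 0.635% to 2.07% in the other 13, and 15 of 15 were higher in DSS_ICB 3 than in any other library. Epithelial genes summed to 0.266% in DSS_ICB 3, 2.09% in DSS_ICB 2 and 1.23% to 2.30% in the others, and 8 of 8 were lowest in DSS_ICB 3. Genes of absorptive colonocytes summed to 0.0837% in DSS_ICB 3 and 0.507% to 1.08% in the 13 others, and 12 of 12 were lowest in DSS_ICB 3. Goblet cell genes summed to 0.0990% against 0.620% to 1.69%, and 8 of 8 were lowest in the same library. Neutrophil genes were at 0.727% in DSS_ICB 3 and 0.489% in DSS_ICB 5, against 0.038% to 0.140% in the remaining libraries. In DSS_ICB 3, 9 of the 10 neutrophil genes were above all of the 13 others, and 1 was below them all. Enteric neuron and glia genes were at 0.0225% in DSS_ICB 3, with 8 of 8 highest there, against 0.00300% in DSS_ICB 2. The share of all genes that were highest or lowest in DSS_ICB 3 is not given, so these counts have no background beside them. Lists of other genes were extreme there too. Of 34 nuclear genes for mitochondrial RNA processing and decay, 19 were below and 2 above all of the 13 others. The part of these cell markers in the mitochondrial levels was not tested.

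**Figure D5:**
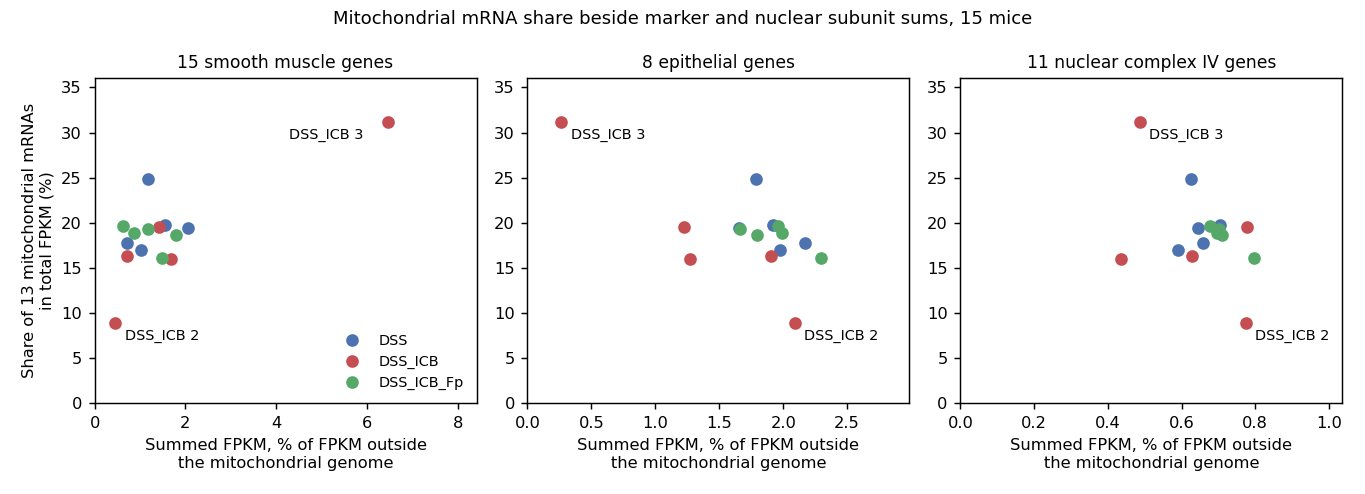
Share of the 13 mitochondrial messenger RNAs in total FPKM against the summed FPKM of smooth muscle genes, epithelial genes and nuclear-encoded complex IV subunits, each as a percent of FPKM outside the mitochondrial genome; points are the 15 mice. DSS_ICB 3 has 31.2 percent mitochondrial messenger RNA with 6.47 percent smooth muscle and 0.266 percent epithelial RNA, and DSS_ICB 2 has 8.88 percent with 0.460 and 2.09 percent.

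Nuclear genes for the same complexes did not follow the mitochondrial genes in these libraries. The 36 nuclear subunits of complex I summed to 0.736% of the FPKM outside the mitochondrial genome in DSS_ICB 2 and 0.523% in DSS_ICB 3. The other 13 libraries were at 0.459% to 0.727%, with a median of 0.598%. That FPKM includes the chromosome 1 copies, whose share was lowest in DSS_ICB 2 and highest in DSS_ICB 3. With the copies left out of it, the sum was 0.646% in DSS_ICB 3 beside a median of 0.667% in the other 13. Complexes III, IV and V were lower in DSS_ICB 3 on that scale, at 0.31%, 0.60% and 0.45%. Their medians in the other 13 were 0.42%, 0.75% and 0.69%. These lower nuclear sums enter the ratios of DSS_ICB 3 given next. The mean FPKM of the mitochondrial complex I genes over that of the nuclear ones was 15.4 in DSS_ICB 2, 44.0 to 76.6 in the other 13 and 153 in DSS_ICB 3. For complex III the ratio was 32.8, 44.6 to 83.9 and 167 in the same order. For complex IV it was 18.2, 33.5 to 71.4 and 117, and for complex V 26.6, 48.5 to 118 and 241. By group, the complex I ratio was 60.3 ± 9.67 in DSS, 66.4 ± 51.8 in DSS_ICB and 52.6 ± 5.17 in DSS_ICB_Fp (SD, n = 5), and the groups overlapped. RNAs for proteins of the large mitochondrial ribosomal subunit summed to 0.378% in DSS_ICB 2, the highest of 15. There 49 of 49 were above the median of the 13 other libraries, as were 28 of 29 of the small subunit. Other lists were raised there too, with 34 of 36 for complex I, 10 of 11 for complex IV and 21 of 24 for transcription and replication. Of 14 biogenesis factors, 5 were above it. The share of all genes above that median is not given. Percents of the ribosomal protein genes are also of FPKM that includes the copies.

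Between groups, none of the nuclear subunit genes passed the test. The 72 nuclear subunits of complexes I, III, IV and V had a median log2 difference of -0.0072 in DSS_ICB against DSS, 0.12 in DSS_ICB_Fp against DSS_ICB and 0.10 in DSS_ICB_Fp against DSS. Of the 72, 35 were above 0 in the first, 51 in the second and 65 in the third, beside 52.8%, 44.5% and 47.1% of all genes. With sample quality weights the first median was 0.17 and the second -0.051. At an unadjusted p under 0.05 limma gave 1 lower in the first, beside 4.22% of all genes, and 8 higher in the second, beside 9.34%. In the third it gave 0, beside 1.41% in either direction. The genes named here have the smallest p of their list in a comparison, and none had an adjusted p under 0.05. In complex I they were Ndufv1 and Ndufs1, both of the NADH-oxidising arm, at -0.27 and -0.34 in the first comparison. In the second Ndufv1 was at 0.39, and in the third Ndufa1 and Ndufs3 were at 0.23 and 0.20. The smallest adjusted p of the 72 in the second comparison was 0.142, for Ndufv1.

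In complex III, Uqcrc2 and the Rieske protein gene Uqcrfs1 were at -0.48 and -0.32 in DSS_ICB against DSS and 0.51 and 0.56 in DSS_ICB_Fp against DSS_ICB (log2). Cytochrome c1, Cyc1, and Uqcrfs1 were at 0.28 and 0.23 in DSS_ICB_Fp against DSS. In complex IV, Ndufa4 and Cox5b were at 0.27 and -0.22 in the first, Cox5b and Cox8a at 0.48 and 0.40 in the second, and Cox6a1 and Cox8a at 0.33 and 0.28 in the third. In the ATP synthase, the catalytic subunit gene Atp5b and the rotor stalk gene Atp5c1 were at -0.47 and -0.34 in the first and 0.55 and 0.45 in the second. Atp5d and Atp5g1 were at 0.31 and 0.22 in the third. Atp5b was measured at 319.5, 308, 280.0, 345 and 341 FPKM in DSS 1 to 5, at 316, 286, 116, 293 and 206 in DSS_ICB 1 to 5, and at 325, 330.3, 364, 367 and 304 in DSS_ICB_Fp 1 to 5. DSS_ICB 3 and DSS_ICB 5 were the lowest of 15 for it, at the opposite end from the mitochondrial genes in DSS_ICB 3.

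The nuclear machinery that copies, transcribes, processes and translates the mitochondrial genome gave no call either. Of 24 genes for transcription and replication, 0 passed in each comparison, with medians of 0.033, -0.032 and -0.010 and 1, 3 and 0 genes at an unadjusted p under 0.05, beside 11.3%, 21.8% and 1.41% of all genes. Rnaseh1, which removes RNA primers, was at 0.30 and -0.33 in the first and second comparisons. The single-strand binding protein gene Ssbp1 was at -0.37 in the second. The nucleotide carrier gene Slc25a33 was at 0.28 and 0.25 in the first and the third, and Polg2, an accessory subunit of the polymerase, at 0.25 in the third. Of 33 tested genes for RNA processing and decay, 0 passed, with medians of -0.0087, -0.047 and -0.050 and 0, 1 and 1 at an unadjusted p under 0.05, against the same shares of all genes. Slirp, whose protein stabilises mitochondrial messenger RNAs, was at -0.65 in the second comparison, and Fastkd1 at 0.37. Gtpbp3 and Nsun3, which modify transfer RNAs, were at 0.20 and -0.25 in the first, and Fastk and Mrm1 at 0.27 and 0.22 in the third.

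Of 49 large and 29 small mitochondrial ribosomal protein genes, 0 passed in each comparison. Medians were 0.13 and 0.13 in DSS_ICB against DSS, -0.16 and -0.14 in DSS_ICB_Fp against DSS_ICB, and -0.033 and 0.0024 in DSS_ICB_Fp against DSS. At an unadjusted p under 0.05 there were 3, 1 and 0 of the large and 0, 1 and 0 of the small subunit, beside 11.3%, 21.8% and 1.41% of all genes. Mrpl52 and Mrpl23 were at 0.62 and 0.35 in the first, Mrpl33 and Mrpl9 at -0.39 and 0.48 in the second, and Mrpl14 and Mrpl34 at 0.29 and 0.31 in the third. Mrps26 and Mrps18b were at 0.39 and 0.36, Mrps18b and Mrps15 at -0.46 and -0.34, and Mrps24 and Mrps34 at 0.30 and 0.25 in the same order.

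Among 11 tested factors of mitochondrial biogenesis, 0 passed, with medians of -0.23, 0.20 and -0.023 and 2, 4 and 0 at an unadjusted p under 0.05, beside 11.3%, 21.8% and 1.41% of all genes. Ppargc1a encodes PGC-1α, a coactivator that drives mitochondrial gene programs. It was measured at 4.89, 6.34, 5.36, 7.10 and 6.32 FPKM in DSS 1 to 5, at 4.76, 4.09, 0.576, 3.38 and 1.39 in DSS_ICB 1 to 5, and at 8.80, 4.46, 7.80, 3.09 and 9.94 in DSS_ICB_Fp 1 to 5. The DSS_ICB mice lay below the DSS mice without overlap, as 0.327% of all genes did, with DSS_ICB 3 and DSS_ICB 5 lowest, and overlapped with the DSS_ICB_Fp mice. The log2 difference was -1.02 ± 0.34 (SE) in DSS_ICB against DSS, with a limma adjusted p of 0.418, and 1.09 ± 0.34 in DSS_ICB_Fp against DSS_ICB, with an adjusted p of 0.113. The nuclear receptor gene Esrrg was at -0.39 and 0.54 in the same comparisons, with adjusted p of 0.434 and 0.119 by limma. It was at 0.822 to 1.23 FPKM in DSS and, wholly lower, at 0.133 to 0.745 in DSS_ICB. No DSS_ICB library reached 1 FPKM, so Esrrg passed the filter only through the groups where it was higher. Its values are near the floor, and its separation adds no support. The 12 absorptive colonocyte genes had medians of -1.14 and 1.47 in these comparisons, with 12 of 12 below 0 and then 11 of 12 above 0, and 0 passed. The 10 neutrophil genes had medians of 1.87 and -2.41, with 10 of 10 above 0 and then 10 of 10 below 0, of which 0 and then 5 passed. The part of these cell markers in the levels of Ppargc1a and Esrrg was not tested. Esrra and Pprc1 were at 0.30 and -0.21 in DSS_ICB_Fp against DSS. In DSS_ICB 5 and DSS_ICB 3, the libraries lowest for Ppargc1a, the share of the mitochondrial messenger RNAs was 15.97% and 31.2%. A relation between Ppargc1a and that share was not tested, and DSS_ICB 3 also differed in cell markers.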

How the data were processed

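Colon RNA of 15 mice in 3 groups of 5 was read from 1 table per mouse. The authors deposited FPKM values. Per the submitters' processing notes, reads were checked with FastQC and aligned with STAR 2.5 to mm10, values came from Cuffnorm, and DESeq was also named. Strand, multi-mapping reads, library type and any later scaling are not given in the sources used here. Of 55335 Ensembl IDs, 55154 matched GENCODE M21 (GRCm38, the assembly of mm10). Depth was estimated from steps between low values of 19516 single-transcript genes. Copies were found with blastn 2.17.0 (identity of at least 99% over at least 90% of the copy). Genes with at least 1 FPKM in at least 5 libraries, 14385 in all, were fitted on log2(FPKM + 1) in limma 3.58.1 (R 4.3.3), with a variance trend, robust fitting and 1 mean per group over all 15 libraries. A fold on this scale is understated for low genes. Tests were two-sided with Benjamini-Hochberg adjustment over all genes, and the threshold was 0.05. The fit was tested on simulated data. Nothing says that cages or litters were separate, so p-values measure the spread between these samples. All protein-coding, ribosomal RNA and tested transfer RNA members were named, and of each nuclear list the genes that passed or else the 2 with the smallest p in a comparison. A gene that this rule names is not reported here. The members and lists were chosen with earlier results of these data known. Shares, pool make-up and marker sums were described without a test. Alternatives changed the scaling, pseudocount, filter, weights and libraries used.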

Additional observations from a re-analysis of the deposited data

Results flagged for a closer look

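In groups of 5 mice, a value was picked out where its gap to the nearest other mouse, as a part of the whole range of the group, was over Dixon's 95% limit. Of 165 groups examined, 21 passed this limit, and chance alone picks out about 1 in 20. The members share libraries, so these are not separate events.

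DSS_ICB 3 stood above its group for mt-Rnr2 at 2219.6 FPKM against 613 to 1049.8 in the other 4, mt-Te at 1798 FPKM, mt-Ty at 185 FPKM, mt-Tw at 68.3 FPKM, mt-Td at 13.2 FPKM and the ribosomal RNA share at 0.872%. DSS 2 stood above its group for mt-Nd1 at 8733 FPKM, mt-Atp8 at 17109 FPKM and mt-Nd4l at 4273 FPKM. DSS 4 did so for mt-Tl2 at 69.5 FPKM, against 4.03 to 22.8 in the other DSS mice. In the messenger pool, mt-Cytb was high in DSS_ICB 2 at 15.8% and mt-Nd3 in DSS_ICB 4 at 3.18%.

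The DSS_ICB_Fp mice lay close together, and 9 of their values passed the limit. DSS_ICB_Fp 4 was low for mt-Co1 at 12551 FPKM against 15508 to 16644 in the other 4, for mt-Nd4l at 1631 FPKM, for the pool share of mt-Nd4l at 2.63% and for the protein-coding share of total FPKM at 16.1%. DSS_ICB_Fp 5 was low for mt-Tf at 0.698 FPKM and high for mt-Tw at 23.0 FPKM and mt-Tt at 4.55 FPKM. DSS_ICB_Fp 3 was high for mt-Co2 at 7155 FPKM, and DSS_ICB_Fp 1 for mt-Ts2 at 6.76 FPKM.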

How the results depend on the processing

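The count of members with an adjusted p under 0.05 stayed at 0 in each of 81 recomputed fits, 27 per comparison, with other scalings, pseudocounts, filters, weights or libraries left out. Over these fits the smallest adjusted p was 0.195 in DSS_ICB against DSS (without DSS_ICB 1), 0.170 in DSS_ICB_Fp against DSS_ICB (without DSS_ICB 3) and 0.720 in DSS_ICB_Fp against DSS (sample quality weights). At an unadjusted p under 0.05 there were at most 8, 5 and 1 members, the first 2 counts without DSS_ICB 3 and 5. Of 2903 recomputed log2 differences of single members, 68 moved by more than their SE in the main fit and 264 changed sign. None of them was called, and 42 of the 68 were without DSS_ICB 3 and 5. Changing the filter, fitting only the compared groups or leaving out a library of the uncompared group cannot change a difference. The 2903 thus include many values that could not move. The fits without DSS_ICB 2 and 3 were added after the data were seen, as were those that counted or left out the chromosome 1 copies. With all libraries kept, sample quality weights turned the protein-coding and transfer RNA medians of DSS_ICB_Fp against DSS to 0.017 and 0.031. A pseudocount of 10 turned the transfer RNA median of DSS_ICB against DSS to 0.010, and that of DSS_ICB_Fp against DSS_ICB ran from -0.064 (pseudocount of 10) to 0.21 (weights). The weighted fit passed 964 genes in DSS_ICB_Fp against DSS_ICB, beside 19 with equal weights, with 0 members among them. No paired analysis was possible because the labels give the mice no numbers shared between groups. Depth limits the low transfer RNAs, of which mt-Ts2 rests on under 1 fragment in most libraries.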
